A study of Mus musculus with 16 samples.

Results

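The diacylglycerol kinase genes are described here across the striatum of 16 mice. The 9 genes Dgka, Dgkb, Dgkd, Dgke, Dgkg, Dgkh, Dgki, Dgkq and Dgkz were taken by symbol from the 24421 genes of the count tables. The tables also list Dgkk, the remaining gene of the family, which is given once below. The family was chosen by measured values, the CPM levels of these libraries, after Dgki had been seen to be lower with the Foxp2 virus in both genotypes. Fitted differences and calls for its members are therefore a description of where each gene stood among all genes and support nothing further. The mice were 13 months old, with 4 mice in each of 4 groups. Con+Con mice had the control genotype and were injected with a control virus, and Con+Foxp2 mice had the control genotype and received a virus for Foxp2 overexpression (labelled Foxp2 OX). BACHD+Con and BACHD+Foxp2 mice were BACHD animals given the same control or Foxp2 virus. BACHD mice carry a mutant human huntingtin gene on a bacterial artificial chromosome and are a model of Huntington disease. All groups, controls included, had a virus injection. The sources used here do not give the type of virus, the promoter that drives Foxp2, the cells it entered or the time between injection and harvest.

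Diacylglycerol kinases add a phosphate to diacylglycerol and turn it into phosphatidic acid. Diacylglycerol is released in the membrane when phospholipase C cleaves phosphoinositides downstream of Gq-coupled receptors, and it recruits protein kinase C, Ras activators and synaptic vesicle priming factors, so these kinases end one lipid signal and begin another. In the striatum, where metabotropic glutamate and muscarinic receptors act through this route in projection neurons, several members are expressed, with Dgkb known as a gene of striatal neurons. The family is divided by protein structure. Dgka, Dgkb and Dgkg encode the calcium-binding type I enzymes, Dgkd and Dgkh the type II enzymes with a pleckstrin homology domain, Dgke the type III enzyme, which prefers arachidonoyl diacylglycerol, Dgkz and Dgki the type IV enzymes with ankyrin repeats, and Dgkq the type V enzyme.

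Libraries held 2660395 to 3669748 reads in genes, so that 3 reads in a library corresponded to 0.819 to 1.16 CPM (counts scaled to a common library size, corrected by the trimmed mean of M values). Foxp2 checked the virus labels. It lay at 87.3 to 153 CPM in the 8 control-virus libraries, at 3500 to 4389 CPM in Con+Foxp2 and at 1291 to 1929 CPM in BACHD+Foxp2, so that Foxp2 levels differed between the genotypes given the virus. Reads on the huntingtin gene Htt were 2.12-fold higher in BACHD+Con than in Con+Con, with no overlap between the groups. Of 20 markers of striatal projection neurons, none was at 0 reads in any library, which does not show how much of each sample was striatum. Cortical excitatory neuron markers were also present and varied, from 161 to 1408 CPM in sum. They were lowest in Con+Con mouse 4 and BACHD+Con mice 2 and 3. The main counts are also given without these 3 libraries.

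All 9 members had enough reads to be tested. The sequences at the start sites of Dgki and Dgkz, the members that were lower with the Foxp2 virus, are shown beside that of Dgkb, the striatal member whose fitted difference did not pass the test. Each is the RefSeq window on GRCm38.p6 from 250 bases before to 50 after an annotated start, read 5′ to 3′ on the gene's strand, with CpG dinucleotides in capitals. They lie at chr6:37299927-37300226 (minus strand), chr2:91963514-91963813 (minus strand) and chr12:37879924-37880223 (plus strand).
Dgki: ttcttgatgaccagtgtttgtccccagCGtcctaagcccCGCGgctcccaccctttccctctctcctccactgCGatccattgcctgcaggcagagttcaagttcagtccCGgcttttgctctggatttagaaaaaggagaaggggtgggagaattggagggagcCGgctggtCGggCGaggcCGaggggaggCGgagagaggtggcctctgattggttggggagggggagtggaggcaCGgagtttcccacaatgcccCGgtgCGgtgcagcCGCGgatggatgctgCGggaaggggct
Dgkz: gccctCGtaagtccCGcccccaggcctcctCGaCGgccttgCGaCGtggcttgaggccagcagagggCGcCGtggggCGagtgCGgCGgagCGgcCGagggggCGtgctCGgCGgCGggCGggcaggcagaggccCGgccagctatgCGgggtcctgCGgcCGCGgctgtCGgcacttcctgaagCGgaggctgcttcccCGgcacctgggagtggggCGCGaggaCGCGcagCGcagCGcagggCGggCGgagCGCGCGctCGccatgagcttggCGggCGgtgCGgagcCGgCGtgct
Dgkb: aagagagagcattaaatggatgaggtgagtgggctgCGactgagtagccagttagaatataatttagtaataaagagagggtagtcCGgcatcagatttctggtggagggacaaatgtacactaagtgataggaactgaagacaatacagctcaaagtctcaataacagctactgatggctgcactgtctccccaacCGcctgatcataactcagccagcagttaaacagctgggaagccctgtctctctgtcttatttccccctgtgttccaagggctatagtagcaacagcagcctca
The windows differ in composition. The Dgkz window is 77.7% G and C and holds 43 CpG, and the Dgki window is 62.3% G and C with 16 CpG. The Dgkb window is 46.3% G and C with 3 CpG, against medians of 52.7% and 7 CpG over 32851 windows of the same length. Dgkz has another annotated start window, with 10 CpG, and counts per gene do not tell which start was used. The printed Dgkb and Dgkz windows lie inside their genes as annotated in GENCODE M21. There Dgkb begins at 37817726 on the plus strand and Dgkz at 91975864 on the minus strand. Their composition is therefore that of an internal start, not of the outermost one. Short motifs of the kind that forkhead factors such as Foxp2 bind were searched on both strands in the 16 windows of the family and Dgkk. TGTTTAC was in 0 of 16 and in 3.65% of all windows, TATTTAT in 1 (a start of Dgkh) and in 5.6% of all, and CAAATT in 1 (Dgke) and in 11% of all. None of these letters is in the printed windows, which says nothing of sites elsewhere in these genes.

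Per exon length, Dgkz, Dgki and Dgkb were the abundant members of the family in control striatum and Dgka and Dgkq the rare ones. On the scale of CPM per kb of annotated exon, the Con+Con level of Dgkz was 61.7 ± 7.93 (SD, n = 4, as for all ± values here), that of Dgki 47.6 ± 10.5 and that of Dgkb 36.9 ± 17. The ranges of these 3 neighbours overlapped, so their order is not separated by the spread between mice. Dgkd, at 16.1 ± 1.66, and Dgkg, at 15 ± 2.5 CPM per kb, came next and overlapped each other. Dgkh, at 7.65 ± 1.44, and Dgke, at 6.9 ± 1.49 CPM per kb, lay below Dgkg without overlap. Dgkq was at 4.68 ± 1.02 CPM per kb and overlapped Dgke. Dgka was at 2 ± 0.581 CPM per kb, below every Dgkq library of the group. The X-linked type II member Dgkk was at 0.816 ± 0.557 CPM per kb, which is 1.29 to 10 CPM, and fell to 0 reads in 1 BACHD+Foxp2 library. Exon lengths come from GENCODE M21 and may not be those the counting used. The order by mean was not the same in every group: under the Foxp2 virus Dgkz kept the highest mean, at 36.3 ± 8.38 CPM per kb in Con+Foxp2 and 45 ± 10.6 in BACHD+Foxp2, while Dgki (28.7 ± 3 and 29.4 ± 2.66) and Dgkb (27.5 ± 1.99 and 31.8 ± 6.65) lay close together.

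**Figure D1:**
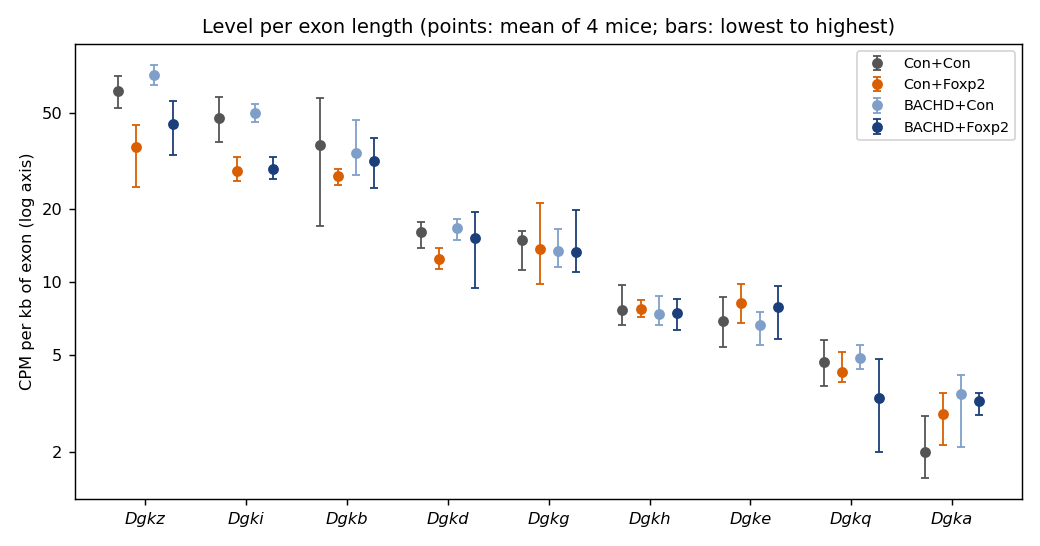
Level of each gene in CPM per kb of exon (log axis), by group; points are means of 4 mice and bars run from the lowest to the highest mouse. In Con+Con, Dgkz, Dgki and Dgkb lie between 36.9 and 61.7 on average and Dgka lies at 2.

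The genes are ordinary protein-coding loci of very different size (coordinates of GENCODE M21 on GRCm38, the mm10 build named in the submitters' processing notes). Dgki spans 454.2 kb of chromosome 6 (36846022 to 37300184) and Dgkb 816.5 kb of chromosome 12 (37817726 to 38634239), while Dgkz covers 43.04 kb of chromosome 2 (91932824 to 91975864). Dgki and Dgkb share no exon bases with another annotated gene. Dgkq, on chromosome 5 (108646693 to 108669672), shares 29.1% of its exon bases with Tmem175 on the opposite strand, and the sources used here do not say whether reads were counted by strand, so Dgkq levels are uncertain. For Dgkz the shared part is 3.54%, with the gene model Gm9821. For the other members it is at most 4.83%.

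The type IV genes Dgki and Dgkz were lower with the Foxp2 virus, and the other 7 members did not pass the test in any comparison. Averaged over the genotypes, Dgki fell 1.68-fold (log2 fold change -0.75, SE 0.09) and Dgkz 1.65-fold (-0.72, SE 0.11). Their adjusted p was 0.000106 and 0.00105 (edgeR's quasi-likelihood test, Benjamini-Hochberg over 13563 genes). Over all genes 0.634% were called lower in this comparison. Since the family was chosen with these values known, the count of 2 of 9 is not read against that share. Both calls held in all 24 alternative fits, with log2 fold changes from -0.79 to -0.65 for Dgki and from -0.79 to -0.64 for Dgkz. In bulk tissue, fewer cells of a type and less RNA per cell cannot be told apart.

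**Figure D2:**
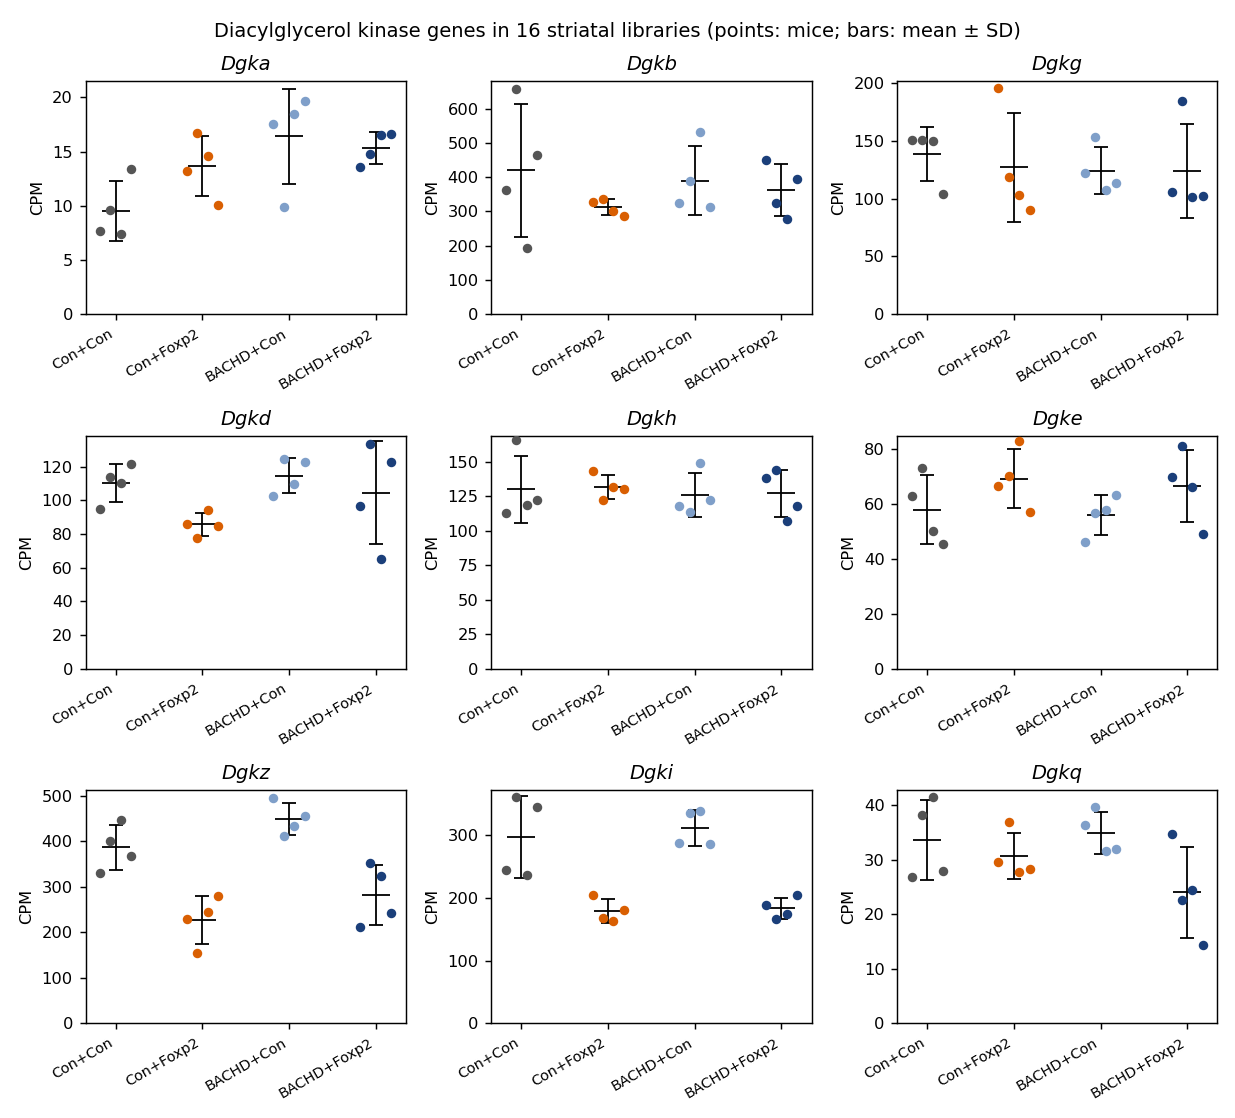
CPM of the 9 genes in every library, by group; points are mice and bars show mean ± SD, with axes starting at 0. For Dgki and Dgkz all 8 Foxp2-virus mice lie below the control-virus mice of their genotype.

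Dgki encodes a type IV kinase of brain and retina. In Con+Con mice 1 to 4 its level was 245, 362, 237 and 345 CPM, and in Con+Foxp2 mice 1 to 4 it was 205, 167, 164 and 180 CPM. The control-virus mice fell into a lower and a higher pair, and every Foxp2-virus mouse lay below both pairs. The higher pair, mice 2 and 4, had projection neuron marker sums of 13129 and 12535 CPM. Those of the lower pair, mice 1 and 3, were 7707 and 6937 CPM. The part of these cells in the Dgki levels was not tested. In BACHD+Con mice Dgki was at 288, 336, 338 and 286 CPM, and in BACHD+Foxp2 mice at 188, 167, 174 and 204 CPM. The highest BACHD+Foxp2 mouse lay well below the lowest BACHD+Con mouse. Group means went from 297 ± 65.5 to 179 ± 18.7 CPM in control mice, a 1.66-fold lower level (log2 fold change -0.73, SE 0.13, edgeR adjusted p = 0.0141). In BACHD mice they went from 312 ± 28.9 to 183 ± 16.6 CPM, a 1.7-fold lower level (-0.77, SE 0.13, edgeR adjusted p = 0.00845). The Dgki levels of the genotypes under the Foxp2 virus were thus close. Foxp2 itself was at 4015 ± 431 CPM in Con+Foxp2 and 1595 ± 288 CPM in BACHD+Foxp2. Its level and the genotype cannot be told apart here, and a relation of Dgki to the Foxp2 level was not tested. In control mice the call was lost in edgeR without Con+Con mouse 2 or 4 or Con+Foxp2 mouse 2 or 3 (adjusted p = 0.0948, 0.0805, 0.0749 and 0.071), and without the 3 libraries lowest in cortical markers (0.0673). In BACHD mice it was lost without BACHD+Con mouse 3 (adjusted p = 0.0698 by edgeR) and without those 3 libraries (0.275), where BACHD+Con keeps 2 mice. The log2 fold change ran from -0.82 to -0.62 over all alternatives in control mice and from -0.82 to -0.65 in BACHD mice.

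Dgkz encodes the other type IV kinase, a nuclear and synaptic enzyme. Its level was 330, 401, 447 and 369 CPM in Con+Con mice 1 to 4 and 230, 155, 244 and 281 CPM in Con+Foxp2 mice 1 to 4. Con+Foxp2 mouse 2 was the lowest of all 16, and the groups did not overlap. In BACHD+Con mice it was 496, 411, 435 and 456 CPM, and in BACHD+Foxp2 mice 211, 352, 324 and 241 CPM. The BACHD+Foxp2 mice formed a low and a high pair, both below every BACHD+Con mouse. The high pair, mice 2 and 3, had cortical marker sums of 1196 and 1080 CPM. Those of the low pair, mice 1 and 4, were 675 and 601 CPM. In Con+Con, mouse 3 was highest in Dgkz and in cortical markers (1408 CPM). Mouse 1 there was lowest in Dgkz, but its cortical sum (539 CPM) was above those of mice 2 and 4 (305 and 236 CPM). The part of cortical cells in the Dgkz levels was not tested. Dgkz fell 1.7-fold in control mice, with means of 387 ± 49.7 and 227 ± 52.6 CPM (log2 fold change -0.77, SE 0.16, edgeR adjusted p = 0.038). In BACHD mice the levels were 449 ± 36.2 and 282 ± 66.7 CPM, and the difference did not pass (log2 fold change -0.67, SE 0.16, edgeR adjusted p = 0.113). It passed there with DESeq2 (adjusted p = 0.0189), without a filter on low counts (0.00941), and without Con+Foxp2 mouse 2 (0.0464) or BACHD+Foxp2 mouse 2 (0.0425). In control mice the call was lost in edgeR without any of 8 single libraries (adjusted p up to 0.153, without Con+Con mouse 2), the others being Con+Con mice 3 and 4, Con+Foxp2 mice 1, 2 and 3, BACHD+Con mouse 1 and BACHD+Foxp2 mouse 4. The value without the 3 libraries lowest in cortical markers was -0.78 (adjusted p = 0.0768 by edgeR).

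In all, 2 of 9 members were called lower in control mice, where 0.0885% of all genes were, and 1 of 9 in BACHD mice, where 0.155% were. No member was called higher, against 0.14% and 0.0885% of all genes. With the 3 libraries lowest in cortical markers left out, the count was 0 of 9 in either genotype. Groups did not overlap, with lower levels under the Foxp2 virus, for 3 members in control mice (Dgkd, Dgki and Dgkz) and 2 in BACHD mice (Dgki and Dgkz), against 2.29% and 2.36% of all genes. For Dgkd the groups nearly touched, at 94.7 and 94.5 CPM. The median log2 fold change of the 9 members was -0.13 in control and -0.11 in BACHD mice, beside 0.00 over all genes in both. The authors' deposited tables give Dgki a log2 fold change of -0.64 in control mice (adjusted p = 0.00117) and -0.70 in BACHD mice (9.72e-07). The same deposited tables give Dgkz -0.66 (adjusted p = 0.000988) and -0.58 (0.00668), so both genes pass at 0.05 in both genotypes there. The summed level of the 9 genes, to which the abundant members contribute most, was 1356 to 1972 CPM in Con+Con and 1100 to 1298 CPM in Con+Foxp2. It was 1530 to 1780 CPM in BACHD+Con and 1157 to 1424 CPM in BACHD+Foxp2, with no overlap between the viruses in either genotype. The sum contains Dgki and Dgkz, and the family was chosen with the lower level of Dgki known. Its separation is therefore no result about the other members.

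**Figure D3:**
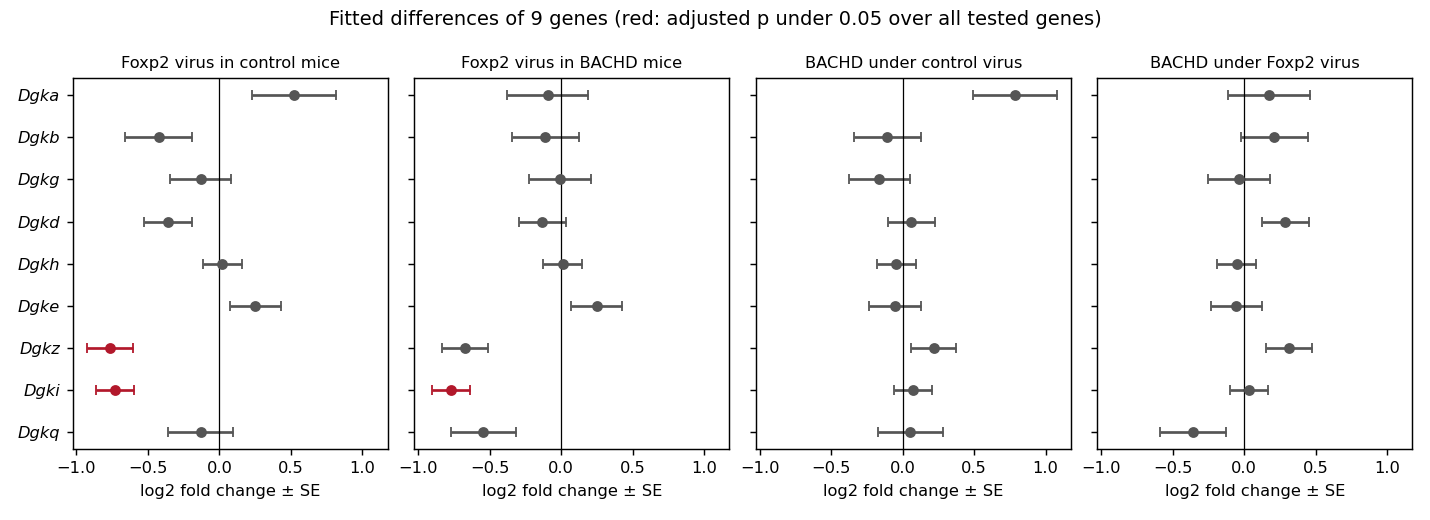
Fitted log2 fold change with SE for the 9 genes in 4 comparisons; red marks an adjusted p under 0.05 over all tested genes. Dgki is red in both virus panels, at -0.73 and -0.77, Dgkz in the panel of control mice only, and no gene is red in the genotype panels.

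Among the type I genes, Dgkb varied most between mice of 1 group. Its level in Con+Con mice 1 to 4 was 364, 658, 194 and 465 CPM, and in Con+Foxp2 it ran from 288 to 335 CPM. The wide control-virus range encloses the whole Foxp2-virus range. The means were 420 ± 194 and 313 ± 22.6 CPM (log2 fold change -0.42, SE 0.24, edgeR adjusted p = 0.784). Leaving out Con+Con mouse 2 brought that value to -0.13, and leaving out Con+Con mouse 3 to -0.66. In BACHD mice the means were 390 ± 101 and 362 ± 75.6 CPM (log2 fold change -0.11, SE 0.23), and without the 3 libraries lowest in cortical markers the value was 0.18. Con+Con mouse 3, lowest in Dgkb, was also lowest of its group in projection neuron markers (6937 CPM in sum) and highest in cortical markers (1408 CPM). Con+Con mouse 2, highest in Dgkb, was highest of its group in projection neuron markers (13129 CPM). The part of these cells in the Dgkb levels was not tested.

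Dgkg, a type I gene best known from cerebellar Purkinje cells, was at 139 ± 23.2 and 127 ± 47.4 CPM in control mice and 124 ± 20.3 and 124 ± 40.7 CPM in BACHD mice under the control and the Foxp2 virus. Single mice stood out in it, Con+Foxp2 mouse 1 at 196 CPM and BACHD+Foxp2 mouse 2 at 185 CPM. Without the first of them the virus log2 fold change in control mice was -0.42 in place of -0.13, and neither passed. Dgka, the type I gene best known from T cells, was low throughout, at 7.39 to 19.7 CPM. Its means were 9.53 ± 2.77 CPM in Con+Con, 13.6 ± 2.76 in Con+Foxp2, 16.4 ± 4.41 in BACHD+Con and 15.3 ± 1.48 in BACHD+Foxp2. The 3 T cell markers found in the tables, the CD3 chains, summed to at most 1.91 CPM and were at 0 reads in 8 libraries.

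No type II or type III gene passed the test. Dgkh was the most even member beside Dgki, with a mean coefficient of variation within groups of 12.9%, and lay at 129.9 ± 24.4 and 132 ± 8.74 CPM in control mice and at 126 ± 16.1 and 127 ± 17.3 CPM in BACHD mice, each under the control and then the Foxp2 virus. Its virus log2 fold changes were 0.02 (SE 0.14) in control and 0.01 (SE 0.14) in BACHD mice. Dgkd was at 110 ± 11.4 and 85.8 ± 6.8 CPM in control mice, without overlap, but did not pass (log2 fold change -0.36, SE 0.16, edgeR adjusted p = 0.675). The groups nearly touched, with the lowest Con+Con mouse at 94.7 CPM and the highest Con+Foxp2 mouse at 94.5 CPM. In BACHD mice Dgkd was at 115 ± 10.6 and 105 ± 30.5 CPM, with BACHD+Foxp2 mouse 3 lowest of all libraries at 65 CPM. Leaving that mouse out moved the log2 fold change in BACHD mice from -0.13 to 0.04. Dgke had positive log2 fold changes with the Foxp2 virus in both genotypes, 0.25 (SE 0.18) in each, and did not pass (edgeR adjusted p = 0.87 and 0.821). Its means were 57.9 ± 12.5 and 69.1 ± 10.7 CPM in control mice and 55.9 ± 7.17 and 66.4 ± 13.1 CPM in BACHD mice. Dgkq was at 33.6 ± 7.35 and 30.7 ± 4.24 CPM in control mice and 34.9 ± 3.85 and 24 ± 8.38 CPM in BACHD mice, where BACHD+Foxp2 mouse 4 was lowest at 14.4 CPM and the difference did not pass (log2 fold change -0.54, SE 0.23, edgeR adjusted p = 0.575). With 4 mice a group, the SEs of these 7 genes were 0.14 to 0.29 in the virus comparisons within a genotype. The SE is not a limit of detection, since Dgkq in BACHD mice, at -0.54 with an SE of 0.23, did not pass. A gene that did not pass is therefore not shown to be unchanged.

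No member was called between BACHD and control mice. Under the control virus 0 of 9 passed by edgeR and 0 by DESeq2, where edgeR called 0.0147% of all genes, and 1 member had an unadjusted p under 0.05, as did 3.44% of all genes. That member was Dgka, at 7.67, 9.65, 7.39 and 13.4 CPM in Con+Con and 17.5, 9.91, 18.5 and 19.7 CPM in BACHD+Con. All but 1 of the BACHD+Con mice lay above the Con+Con mice (log2 fold change 0.78, SE 0.29, edgeR adjusted p = 1 when rounded), and without the 3 libraries lowest in cortical markers, which leaves 2 BACHD+Con mice, the value was 1.17 and did not pass either. Under the Foxp2 virus the same gene had a log2 fold change of 0.17 (SE 0.28). There 0 of 9 members passed by either tool, and 0 had an unadjusted p under 0.05, beside 0.059% of all genes called and 4.18% with such a p. Dgki differed by 0.07 (SE 0.13) under the control virus and 0.03 (SE 0.13) under the Foxp2 virus on the log2 scale. Dgkz differed by 0.22 (SE 0.16) and 0.31 (SE 0.16). Averaged over the viruses 0 of 9 members passed by edgeR or DESeq2, beside 0.0369% of all genes, and Dgka (0.48, SE 0.20) and Dgkz (0.26, SE 0.11) had an unadjusted p under 0.05 (0.0278 and 0.0293), as did 4.05% of all genes. In the authors' deposited table of BACHD+Con against Con+Con, Dgka has a log2 fold change of 0.34 and each of the 9 genes an adjusted p of 1 when rounded. That value is smaller than the 0.78 fitted here, and the sizes are not compared.

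The virus difference was not shown to depend on genotype for any member. The interaction of genotype and virus was called for 0 of 9 members and 0 of 13563 genes by edgeR, and DESeq2 also called 0 members. No member had an unadjusted p under 0.05, beside 3.8% of all genes. For Dgki it was -0.04 on the log2 scale, with a 95% interval of -0.45 to 0.37, and for Dgkz 0.09, with an interval of -0.40 to 0.59. These intervals are not a limit of detection. With 4 mice a group, larger interactions could also go uncalled, as that of Foxp2 did (-1.34, SE 0.23, edgeR adjusted p = 0.077). Of the 9 members Dgka had the largest interaction in size (-0.61, SE 0.41).

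Most markers of striatal neurons had negative log2 fold changes with the virus, few of which passed the test. All 20 projection neuron markers had negative log2 fold changes in control mice (median -0.46) and 19 of 20 in BACHD mice (median -0.25), with 0 called in each, and without the 3 libraries lowest in cortical markers 19 and 11 of 20 were below 0 (medians -0.33 and -0.01). Their summed level was 6937 to 13129 CPM in Con+Con, 6803 to 8269 in Con+Foxp2, 8010 to 12387 in BACHD+Con and 7296 to 9928 in BACHD+Foxp2, and overlapped between the viruses in both genotypes. All 10 interneuron markers were below 0 in both genotypes, with sums of 754 to 999, 503 to 670, 774 to 850 and 618 to 776 CPM in the same order of groups. Astrocyte markers were above 0 in 6 of 8 in both genotypes, with sums of 6722 to 8346, 7569 to 8018, 6342 to 6844 and 6766 to 7972 CPM. Microglial markers were above 0 in 7 of 10 in control and 10 of 10 in BACHD mice, with sums of 269 to 331, 316 to 397, 239 to 290 and 326 to 384 CPM. Cortical markers were above 0 in 9 of 10 and 10 of 10, with sums of 236 to 1408, 377 to 1014, 161 to 1140 and 601 to 1196 CPM. The 4 choroid plexus markers were below 0 in both genotypes, with sums that ran from 110 to 10600 CPM over the 16 libraries. Oligodendrocyte markers were below 0 in 6 of 8 in control and 2 of 8 in BACHD mice, with sums of 5751 to 8973, 4020 to 6269, 4849 to 6641 and 2805 to 7795 CPM. Endothelial and mural markers were below 0 in 5 of 6 tested in control and 2 of 6 in BACHD mice, with sums of 201 to 286 CPM over all libraries. With those 3 libraries left out, the cortical list had 3 of 10 below 0 in control mice (median 0.09) and 5 of 10 in BACHD mice (median -0.06), and the choroid plexus list 0 of 4 below 0 in BACHD mice. The interneuron list then had 10 of 10 and 9 of 10 below 0 in control and BACHD mice. Its medians were -0.58 and -0.43, beside -0.61 and -0.20 with all libraries. The astrocyte list had 2 of 8 below 0 in each genotype, and the microglial list 3 of 10 and 1 of 10. Single markers called within a genotype were Chat, Gfap and Ctss, all in BACHD mice. Over all genes 0.155% were called lower and 0.0885% higher there. Averaged over the genotypes, where Dgki and Dgkz were called, 1 of 20 projection neuron markers was called lower (Ptpn5). So were 3 of 10 interneuron markers (Chat, Slc5a7 and Slc17a8), beside 0.634% of all genes. In the same average 3 of 8 astrocyte markers (Gfap, Aqp4 and Slc1a3) and 1 of 10 microglial markers (Ctss) were called higher. The share of all genes called higher there was not counted, and nothing is read from the number of markers called. The part of any of these cell types in the levels of Dgki and Dgkz was not tested.

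The levels of Dgki, Dgkz and Dgkb were also set against the projection neuron markers, as a description of the same CPM values. The measure was log2 CPM of the gene minus the mean log2 CPM of the 20 markers in the same library. That marker mean averaged 8.29 in Con+Con and 7.90 in Con+Foxp2, and 8.33 in BACHD+Con and 8.08 in BACHD+Foxp2. A gene with an unchanged level therefore lies higher on this measure under the Foxp2 virus. The share of all genes whose groups do not overlap on it was not counted. For Dgki it was -0.07, -0.24, 0.12 and -0.22 in Con+Con mice 1 to 4 and -0.35, -0.63, -0.35 and -0.35 in Con+Foxp2 mice. In BACHD mice it was 0.01, -0.04, -0.25 and 0.12 under the control virus and -0.53, -0.54, -0.55 and -0.64 under the Foxp2 virus. The groups did not overlap in either genotype, and the difference of means was -0.32 in control and -0.52 in BACHD mice. For Dgkz the differences were -0.40 and -0.46 and the groups overlapped in both genotypes, with SDs of 0.36 to 0.54 within groups. For Dgkb they were 0.09 and 0.14, also with overlap. Dgka (0.89) and Dgke (0.65) lay higher on this measure in Con+Foxp2 than in Con+Con without overlap, and overlapped in BACHD mice (0.19 and 0.48). Their own fitted log2 fold changes in control mice were 0.52 and 0.25, and neither passed (edgeR adjusted p = 0.792 and 0.87). The fitted log2 fold change of Dgki itself, with the 3 libraries lowest in cortical markers left out, was -0.65 in both genotypes. These differences have no test, and the part of projection neuron number or RNA in the Dgki level was not tested.

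**Figure D4:**
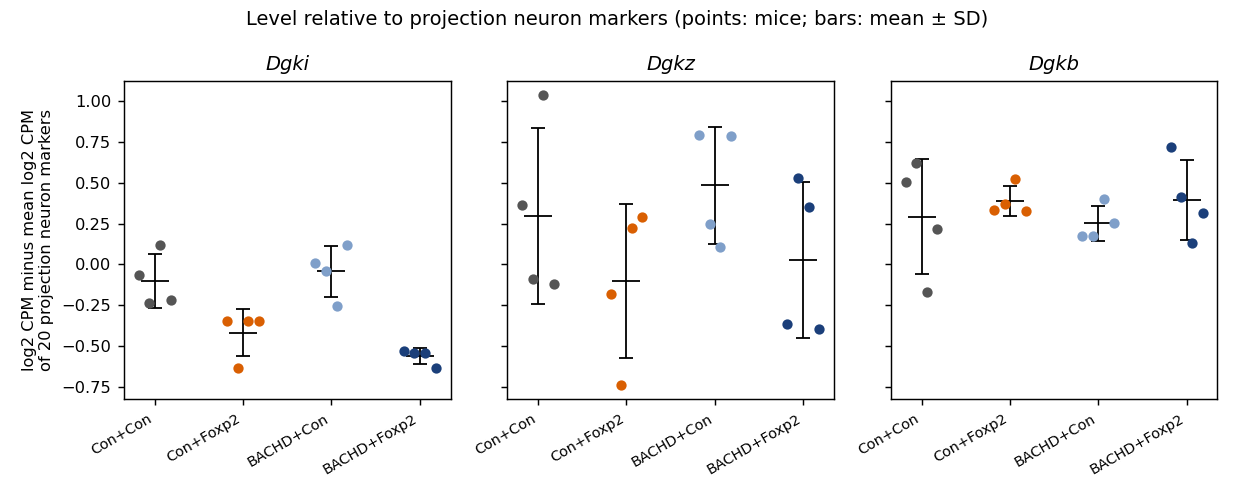
Log2 CPM of Dgki, Dgkz and Dgkb minus the mean log2 CPM of 20 projection neuron markers, by group; points are mice and bars show mean ± SD. Dgki lies between -0.25 and 0.12 in the control-virus mice and between -0.64 and -0.35 in the Foxp2-virus mice, while Dgkb overlaps between viruses.

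The genes whose levels ran most closely with Dgki over the 16 libraries were Cacna2d3, a calcium channel subunit (Pearson r = 0.97), and Pde2a, a phosphodiesterase stimulated by cGMP (0.97). They were followed by the synaptic vesicle protein gene Sv2c (0.93), Smg5 of nonsense-mediated decay (0.92), the transcription factor gene Gtf2i (0.91) and the striatal phosphatase gene Ptpn5 (0.91). For Dgkb they were the adhesion gene Alcam (0.96), the striatal G protein regulator Rgs9 (0.91), the phosphodiesterase Pde7b (0.90), the G protein subunit Gnal (0.90), the proteoglycan Spock3 (0.90) and the dopamine receptor Drd1 (0.89). The libraries share their groups and dissection, and these values, of log2 CPM, are a description. Since they span all groups, genes that run with Dgki share its virus difference by construction, and no call of these genes is read as a result. Of the 6 Dgkb partners, 3 (Rgs9, Gnal and Drd1) are in the projection neuron list, and of the 6 Dgki partners Ptpn5 is.

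In the 5 lists of the wider diacylglycerol pathway, calls were few, as over all genes, and nothing is read from their number. In the virus comparisons 1 gene passed, Plcg1, 1 of 14 tested in the phospholipase C list. It passed in the average over genotypes, where 0.634% of all genes were called lower. Plcg1, the receptor tyrosine kinase-coupled phospholipase C that produces diacylglycerol, was at 146 ± 15.1 and 100 ± 9.43 CPM in control mice and 154 ± 12.1 and 119 ± 17.8 CPM in BACHD mice. It fell with the Foxp2 virus averaged over the genotypes (log2 fold change -0.45, SE 0.09, edgeR adjusted p = 0.00817) and did not pass within either genotype (adjusted p = 0.0797 and 0.389). The other 13 genes of the list, which include the phospholipase C-like genes Plcl1 and Plcl2, did not pass. The list's median log2 fold change was -0.05 in control and 0.16 in BACHD mice.

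The list of diacylglycerol effectors held 19 genes of protein kinases C and D, the Rasgrp family, Munc13 proteins and chimaerins. It had 0 calls in any comparison and medians of -0.12 in control mice and 0.00 in BACHD mice. Over all genes 0.0885% were called lower with the virus in control and 0.155% in BACHD mice. Rasgrp1 and Rasgrp2 had the lowest p of this list. Rasgrp1 was at 636 ± 83.1 and 482 ± 66.1 CPM in control mice (log2 fold change -0.40, SE 0.11, edgeR adjusted p = 0.156) and at 621 ± 35.2 and 594 ± 16.8 CPM in BACHD mice (-0.07, SE 0.11). Rasgrp2 was at 124 ± 49.8 and 80.5 ± 15.7 CPM in control mice (edgeR adjusted p = 0.522). Of 15 other enzymes of diacylglycerol and phosphatidic acid, 12 were tested and 0 were called, with medians of -0.16 and -0.19. The triglyceride synthesis genes Dgat1 (26.6 ± 6.57 and 12.9 ± 7.31 CPM in BACHD mice, edgeR adjusted p = 0.373) and Dgat2 (53.7 ± 11.7 and 35.5 ± 8.05 CPM in control mice, 0.576) had the lowest p there.

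The 19 genes of phosphatidylinositol resynthesis, which return phosphatidic acid to the phosphoinositide pool, had 0 calls and medians of 0.03 and 0.06. Pip4k2a, a phosphoinositide kinase gene, was at 97.1 ± 6.56 and 74 ± 9.31 CPM and the lipid transfer gene Pitpnm1 at 115 ± 16.4 and 141 ± 8.32 CPM in control mice (edgeR adjusted p = 0.62 and 0.622). Of 16 genes of Gq receptors and their signalling, 15 were tested and 0 called, with medians of -0.11 and 0.15. The muscarinic receptor gene Chrm3 was at 15.1 ± 5.4 and 34.1 ± 12.7 CPM in BACHD mice (edgeR adjusted p = 0.487) and the IP3 receptor gene Itpr1 at 1974 ± 256 and 1645 ± 202 CPM in control mice (0.588). Over all genes the median was 0.00 in both virus comparisons. No gene of the 5 pathway lists was called between the genotypes.

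**Figure D5:**
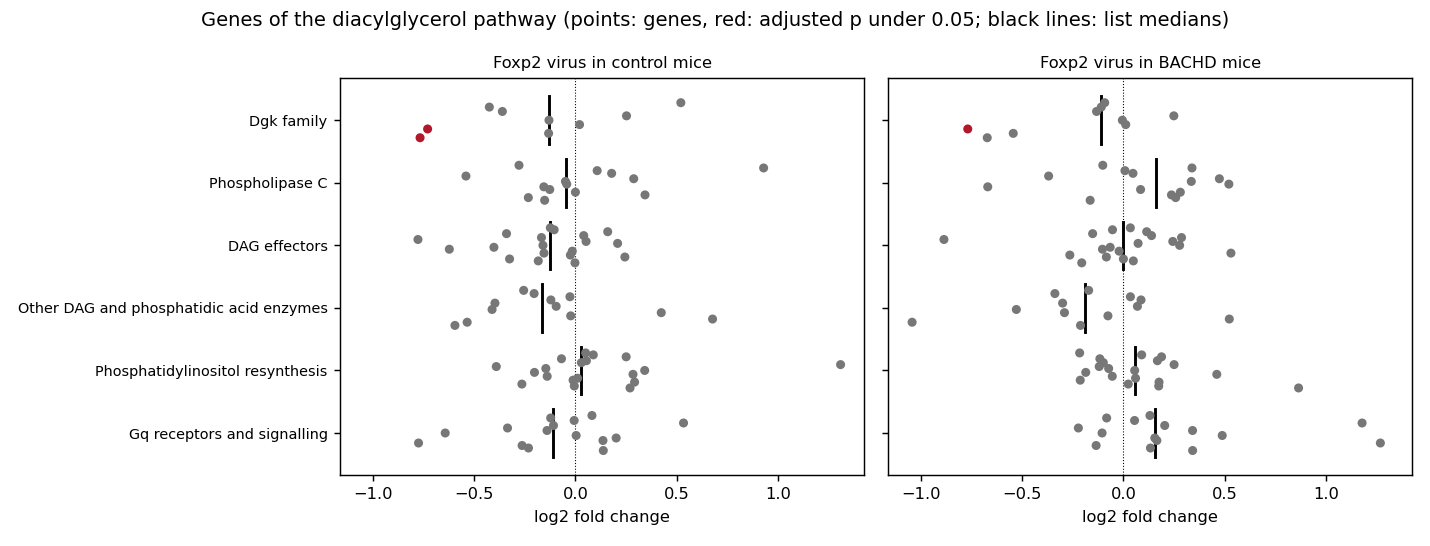
Log2 fold change with the Foxp2 virus of the 9 family members and the tested genes of 5 pathway lists in control mice (left) and BACHD mice (right); points are genes, red an adjusted p under 0.05, and black lines list medians. The red points are Dgki and Dgkz on the left and Dgki on the right, and the list medians lie between -0.19 and 0.16.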

How the data were processed

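Striatal RNA of 16 mice was measured by RNA sequencing (SMARTer libraries, per the labels' protocols). The authors deposited raw read counts per gene symbol for each mouse. Alignment and counting tools in the submitters' processing notes are STAR (2.4.0) and HTSeq, with DESeq2 and the build mm10 also listed, while counting options are not stated there. The 5 closing summary lines of each count table were left out, and reads in genes made up 22.5% to 24.7% of those listed. Log2 fold changes and adjusted p-values of 3 comparisons, deposited by the authors, are quoted as such. Deposited log2 fold changes can be smaller in size than those fitted here (Foxp2 in control mice, 4.51 beside 5.09). Sizes are therefore not compared between them.

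Counts were tested with edgeR 4.0.16 in R 4.3.3 (quasi-likelihood test, trimmed mean of M values, filterByExpr, 1 mean per group, all 16 libraries, two-sided), adjusted by Benjamini-Hochberg over 13563 genes, with a call where the adjusted p was below 0.05. The SE is the log2 fold change divided by the root of the F statistic, and 95% intervals use 12 degrees of freedom. Log2 CPM has a prior count of 2. The 7 comparisons were the virus in each genotype, the genotype under each virus, both averages and the interaction. The scripts were tested on simulated data. The 120 pairs of libraries all differed by more than counting error (lowest chi-square per degree of freedom 4.34). No batch is labelled, and the labels state 4 mice per group.

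Members and lists were chosen with earlier results of these data known. Named genes were all members, pathway genes called in a comparison or otherwise the 2 with the lowest p in a virus comparison of 1 genotype, and the 6 genes most correlated with Dgki and with Dgkb. Alternatives were DESeq2 1.42.0, voom in limma 3.58.1, other scalings and filters, fits of the compared groups alone, a replicate block and left-out libraries. Of the symbols listed, 3 were found under older names (Ppap2a, Ppap2b and Ppap2c) and 1, Trac, was not matched.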

Additional observations from a re-analysis of the deposited data

Results flagged for a closer look

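Dgkg in Con+Con mouse 4 was at 104 CPM, while the other 3 mice of the group lay at 150 to 151 CPM, so that the gap made up 0.986 of the group's range. Dgkg in BACHD+Foxp2 mouse 2 was at 185 CPM, against 102 to 106 CPM in the other 3 mice (0.949 of the range). These were 2 of the 36 combinations of member and group that were looked at, and chance marks about 1 in 20. Without BACHD+Foxp2 mouse 2 the virus log2 fold change of Dgkg in BACHD mice was -0.28 in place of -0.01.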

How the results depend on the processing

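The counts of members called were unchanged in all alternatives for both genotype comparisons, the average over viruses and the interaction (0 called) and for the virus averaged over genotypes (2 called). In control mice, where 2 members were called, 1 was called with the replicate block, 0 without the 3 libraries lowest in cortical markers, and 0 to 2 with 1 library left out (2 in 8 of 16 such fits). In BACHD mice, where 1 was called, 2 were called with DESeq2, 2 without a low-count filter, 0 without those 3 libraries, and 0 to 2 with 1 library left out (1 in 13 of 16). The replicate numbers gave no pairing: same-numbered mice of different groups deviated together with a mean correlation of -0.02 (over 0.1 in 2 of 24 pairs), beside 0.01 for different numbers. With the block the adjusted p of Dgkz in control mice was 0.0881, and no other call of a member changed. Dgki and Dgkz kept negative log2 fold changes in both genotypes in all 25 alternatives. Over all member values, 0 called values reversed and 17 lost and 4 gained a call. For genes below about 3 reads per library, such as Dgkk in some mice, depth limits any comparison.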
